A study of Homo sapiens with 6 samples.

Results

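The RNA of A375 cells that had received only the solvent DMSO for 24 h is described here across all genes, with no drug comparison. A375 is an established human melanoma line, and the labels name a melanoma metastasis as its source. Of the 6 samples of the study, the 3 DMSO samples were used; they are called the unnumbered sample, sample 1 and sample 2 after their titles, and the other 3 samples had received 3 µM vemurafenib, a RAF inhibitor, for the same 24 h. All 6 are the same line, so no untransformed melanocyte is available for comparison. A gene was counted as detected when at least 1 of its probes had a detection p-value under 0.01 on all 3 DMSO arrays, and as not detected when no probe had one on any of them. Of 20044 named genes, 9801 (48.9%) were detected on all 3 arrays, 2409 (12%) on 1 or 2 and 7834 (39.1%) on none.

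Melanocytes are pigment cells that arise from the neural crest. The transcription factor MITF, which SOX10 and PAX3 help to switch on, drives the genes of the melanosome, where tyrosinase and its relatives make melanin. Melanoma cells can keep this pigment programme or lose it while they keep neural crest and invasive genes, and their growth usually runs through the RAF, MEK and ERK kinases to cyclin D1.

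The 3 arrays had median intensities of 91.4 to 94.5 units against an estimated background of 85.9 to 88.3, and 18370 to 18628 probes each (38.2% to 38.7%) were detected. The samples were not equally alike. The unnumbered sample and sample 1 differed with an SD of 0.243 on the log2 scale over the detected genes, whereas sample 2 differed from the unnumbered sample with an SD of 0.526 and from sample 1 with an SD of 0.528. The labels do not say whether the samples were separate cultures, so the spread among them may be technical. For this reason values are given per sample, in the order unnumbered, 1 and 2 unless stated otherwise, as log2 background-corrected signals. Probes bind with different strength, so an order of signals between genes is not an order of RNA amounts.

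Detected genes had mean log2 signals between 4.68 and 14.02, with a median of 7.70 and quartiles at 6.27 and 9.25. The median SD over the 3 samples was 0.216. SLC7A11, RMRP and GMFG lay just inside the detection rule, with a highest p-value of 0.00992, 0.00987 and 0.00982, and ZNF12, USP46 and USP19 just outside it, with 0.0101, 0.0101 and 0.0102. Their log2 means ran from 4.91 to 5.40, so genes near this level were called detected or not on small differences in signal. Detection also differed with the number of probes: 45.1% of genes with 1 probe were not detected on any array, against 27.1% of genes with several.

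The share of members detected was compared between 53 gene lists, beside the 48.9% of all genes. All 18 translation factors and all 23 genes of the proteasome and chaperones were detected, and 39 of 40 mitosis genes. At the other end, none of 17 leukocyte, 7 erythroid or 10 skeletal muscle markers was detected on all 3 arrays. Pigment cell genes, with 7 of 19 detected (36.8%), lay below the share of all genes. Of 46 lists with at least 3 detected members, 33 had a median signal above that of all detected genes.

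**Figure D1:**
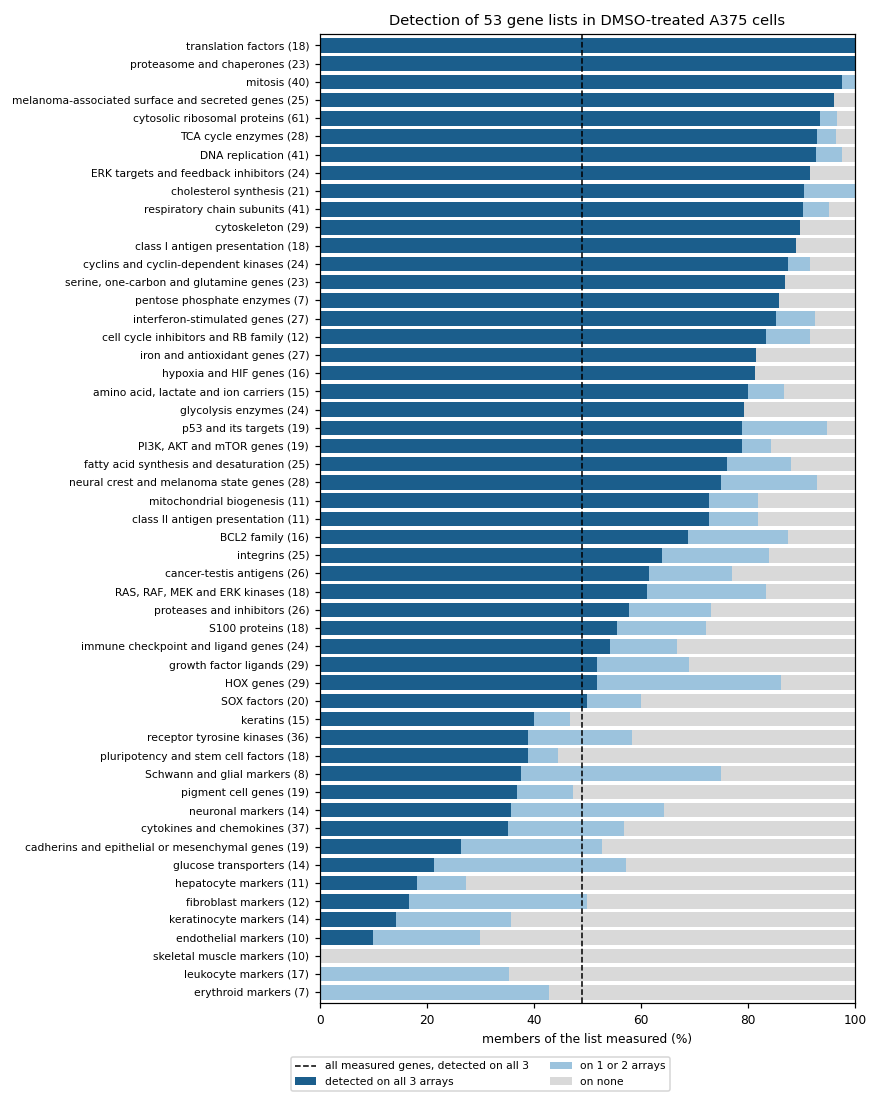
Share of the measured members of each of 53 gene lists (number of measured members in brackets) detected on all 3 DMSO arrays (dark bars), on 1 or 2 (light bars) and on none (grey bars), as percent of members. The dashed line is the 48.9% of all 20044 genes detected on all 3 arrays, and 3 lists, of leukocyte, erythroid and skeletal muscle markers, have no dark bar.

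EEF1A1, the elongation factor that brings transfer RNAs to the ribosome, had log2 signals of 14.04, 14.01 and 14.01, the highest of the detected genes. TPT1, a growth-related protein whose mRNA is under translational control, had 13.94, 13.92 and 13.91. Of the 20 brightest genes 7 encoded ribosomal proteins, with RPS12 at 13.98, 13.86 and 13.89. ATP5F1B, the catalytic subunit of the mitochondrial ATP synthase, had 13.82, 13.80 and 13.88. The glycolytic enolase ENO1 had 13.87, 13.70 and 13.87. The samples differed by less than 0.2 units in these 5 genes. FTL, the ferritin light chain that stores iron, had 13.83, 13.87 and 13.72, and TXN, thioredoxin, lay beside it at 13.80, 13.82 and 13.73. SERPINE2, a secreted inhibitor of serine proteases, was among the 20 with 13.79, 13.79 and 13.80. The actin ACTG1 and the actin-binding profilin PFN1 had log2 means of 13.79 ± 0.06 and 13.78 ± 0.02 (SD, n = 3 each). RPL13AP5, PPIAL4A and RPSAP9 were also among the 20, but they are copies of RPL13A, PPIA and RPSA, and near-identical sequences may share a probe's signal, so their own level is uncertain. The 20 log2 means lay between 13.78 and 14.02, a narrow stretch at the top of the scale. Of 2 common loading controls, ACTB, cytoplasmic beta-actin, had 13.23, 13.12 and 13.44, and GAPDH, a glycolytic enzyme, had 13.76, 13.85 and 13.60.

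Pigment cell genes were detected on all 3 arrays for 7 of 19 members (36.8%, against 48.9% of all genes), and 10 (52.6%) were detected on none, against 39.1% of all genes and 45.1% of genes with 1 probe. These shares are not far from those of all genes. In a bulk sample, fewer cells that express a gene and less of its RNA per cell cannot be told apart. The 10 undetected genes included TYR (tyrosinase, the rate-limiting enzyme of melanin synthesis), TYRP1 (its relative), PMEL (the fibril protein of the melanosome), OCA2 and SLC45A2 (melanosomal transporters), SLC24A5 and GPR143. SLC45A2 was read by 4 probes and KIT by 2, and the other 8 undetected genes (BCL2A1 and TRPM1 included) by 1 probe each. MITF itself was detected on all 3 arrays but in the lowest 25% of detected genes, with log2 signals of 5.97, 6.04 and 5.72. MLANA, the antigen melan-A, was detected on 1 array and RAB27A, a GTPase of melanosome transport, on 2.

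The pigment genes that were detected had signals spread over a wide range. CDK2, a cell cycle kinase whose gene MITF controls in melanoma, had 9.99, 9.78 and 10.55. MLPH, melanophilin, which links melanosomes to a motor protein, had 9.63, 9.72 and 8.10. GPNMB, a melanosomal glycoprotein, had 8.93, 8.57 and 7.79. In MLPH and GPNMB sample 2 was below the other samples, and in CDK2 it was above them. MC1R, the melanocortin receptor, had 7.70, 7.74 and 6.86, again lowest in sample 2. EDNRB, the endothelin receptor of neural crest cells, had 6.29, 6.13 and 7.09 and was highest there. MYO5A, the myosin motor of melanosomes, had 7.01, 7.07 and 7.29, with little difference between the samples.

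Promoter sequences of the pigment genes were read for the 7 letters TCATGTG, known as the M-box that MITF binds. On either strand these letters stood in 6 of 16 pigment cell genes with a promoter in the reference (37.5%), against 2.19% of the 14438 matched protein-coding genes, within a window of 250 bases before and 50 after the RefSeq start. This motif was searched after the other results were known, and a match describes letters, not binding. The list was chosen to hold genes known to be driven by MITF, so its share of this motif is not independent of that choice. The 6 promoters are shown because 5 of them belong to genes that were not detected on any array and 1, GPNMB, to a gene detected on all 3. The sequences are from RefSeq on GRCh38.p14, 5′ to 3′ on the strand of the gene, with the motif or its complement in capitals. TYR lies at chr11:89177758-89177787 (plus strand), TYRP1 at chr9:12693228-12693257 (plus) and GPR143 at chrX:9765891-9765920 (minus). SLC24A5 lies at chr15:48120963-48120992 (plus), BCL2A1 at chr15:79971205-79971234 (minus) and GPNMB at chr7:23246640-23246669 (plus).
TYR: aagaaaagtcagTCATGTGcttttcagagg
TYRP1: gttggaagggaaTCATGTGctgatcaagtc
GPR143: agaggcccagggCACATGAtgccgccccca
SLC24A5: aaggagactcctCACATGAtccagtttaat
BCL2A1: ctccatgtatcaTCATGTGtcataactcag
GPNMB: gtgagtcataagCACATGAgttgtaagagg
Counted from the start base, the motif began at position -105 in TYR and at -145 in TYRP1. GPNMB and GPR143 held 2 matches each, of which the first is shown.

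Genes of the neural crest and of melanoma states, taken as 1 list, were detected more widely. On all 3 arrays 21 of 28 were detected (75%, against 48.9% of all genes). AXL, a receptor tyrosine kinase linked to invasive melanoma, had 11.89, 11.47 and 11.64. SOX10, the factor that specifies the neural crest and melanocyte lineage, had 9.84, 10.04 and 10.42, in the highest 25% of detected genes, whereas MITF lay in the lowest. MSX1, a homeobox factor of the neural crest border, had 10.48, 10.51 and 10.37. These 3 genes were high in every sample. ETS1, a factor of the ETS family, had 9.99, 9.75 and 9.63, and its values were close. ERBB3, a receptor of neuregulins, had 9.45, 9.52 and 9.87. ID3, an inhibitor of basic helix-loop-helix factors, had 9.19, 9.63 and 10.22 and was highest in sample 2. The dimmest detected member was TCF4, a helix-loop-helix factor, at 4.84, 5.0 and 4.55. NGFR, the nerve growth factor receptor of neural crest stem cells, was also dim at 5.41, 4.92 and 6.26, as was PAX3, a factor upstream of MITF, at 5.13, 5.67 and 5.47; both were picked after their values were seen. FOXD3 and SNAI1, which act early in the neural crest, were not detected with 1 probe each, SNAI2, GFRA2, AQP1 and MSX2 were detected on 1 array, and ZEB1 on 2. Over the 21 detected genes the median exceeded that of all detected genes by 0.08 only, 8 lay in the lowest 25% and 6 in the highest, so the list was widely detected without being bright as a whole. The difference turned to -0.48 when each gene stood at the mean of its detected probes, and its sign also changed with single samples left out.

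**Figure D2:**
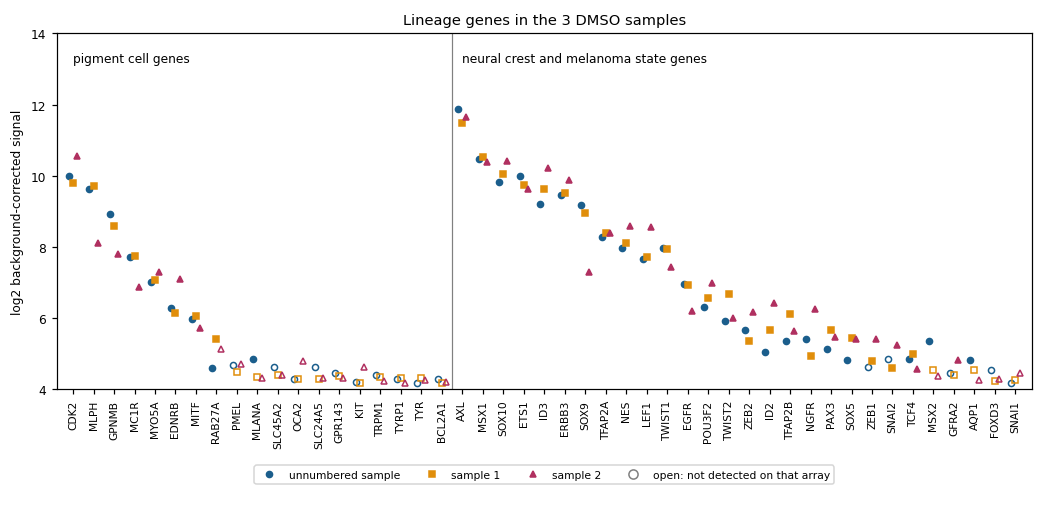
Log2 background-corrected signal (vertical axis) of 19 pigment cell genes (left) and 28 neural crest and melanoma state genes (right) in the unnumbered DMSO sample (circles), sample 1 (squares) and sample 2 (triangles); open symbols were not detected on that array. The 10 pigment genes with open symbols throughout lie under 5, and AXL, MSX1, SOX10 and ETS1 lie above 9.

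Surface and secreted proteins of melanoma were almost all detected, 24 of 25. VIM, the intermediate filament protein vimentin, had 13.66, 13.58 and 13.67. TIMP1, an inhibitor of metalloproteinases, had 12.78, 12.79 and 12.63. CD44, the hyaluronan receptor, had 12.52, 12.51 and 12.48. These 3 genes hardly differed between the samples. CEMIP, which takes part in hyaluronan breakdown, had 10.37, 10.47 and 9.92. PLAT, the tissue plasminogen activator, had 10.13, 10.37 and 9.55, and sample 2 was lowest in both. S100B, the S100 protein used to diagnose melanoma, was not detected with its 1 probe. Among the markers of a melanoma line, MIA, a secreted melanoma protein, had a log2 mean of 9.78 ± 0.21, CSPG4, a surface proteoglycan, 9.19 ± 0.25, and PRAME 9.11 ± 0.24 (SD, n = 3 each). SOX10, MIA, CSPG4 and PRAME were thus detected, as was MITF at a low level. MLANA was detected on 1 array, PMEL, TYR, TYRP1 and S100B were not detected, and DCT had no probe under its name. CD24, the small surface glycoprotein in the title of the study, was the dimmest detected member of the list at 4.91, 4.93 and 5.03, close to the lower end of all detected genes.

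Cancer-testis antigens, proteins normally limited to germ cells that many melanomas express, were detected for 16 of 26 genes (61.5%). SPANXB1, a sperm protein of the X chromosome, had 13.70, 13.70 and 12.52, and its relative SPANXA1 had 12.65, 12.48 and 10.74. Their copies are near identical and may share signal, and in both sample 2 was lower than the other samples by more than 1 unit. MAGEA4, of the melanoma antigen family, had 11.79, 11.75 and 11.76, nearly the same in all 3 samples. MAGEC2 had 10.39, 10.36 and 10.89, highest in sample 2. PRAME, a preferentially expressed melanoma antigen, had 9.25, 9.25 and 8.84. SSX1 was the dimmest detected member at 4.96, 5.02 and 5.66, MAGEB2 and CTAG1B were detected on 1 array and MAGEA2 and XAGE1B on 2. MAGEC1, CTAG2, SSX4 (5 probes), CTAGE1, DAZL and DDX4 were not detected.

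In each list of markers of other cell types, the share detected on all 3 arrays was under the 48.9% of all genes. On no array were 35.7% of neuronal and 25% of Schwann and glial markers detected, under the 39.1% of all genes. In the other lists this share was 50% (fibroblast markers) to 100% (skeletal muscle markers). For leukocytes none of 17 markers was detected on all 3 arrays, PTPRC (CD45, with 4 probes), CD3E, MS4A1 and TYROBP were on none, and CD14, ITGAM and CSF1R were on 2. The intensities of the 17 genes summed to 1564 to 1591 units, about background for each probe. For the endothelium 1 of 10 was detected, TIE1 at 5.29, 4.88 and 4.78, while CDH5, VWF and KDR were not, and the sum was 881.7 to 916.7. For fibroblasts 2 of 12 were detected, FBLN1 and LUM, with log2 means of 5.52 ± 0.49 and 5.20 ± 0.37 (SD, n = 3 each). The sum over the 12 markers was 1085 to 1177, and the fibrillar collagens COL1A1, COL1A2 and COL3A1 were not detected. For keratinocytes 2 of 14 were detected, the desmosomal DSC3 and KRT10, which had 10.20, 9.97 and 10.32. KRT5, KRT1, IVL, FLG and CDH1 were not detected, and the sum was 2142 to 2671, with KRT10 the brightest probe. For Schwann and glial cells 3 of 8 were detected, with a sum of 1442 to 1844. ERBB3 is one of these and is shared with the list of neural crest and melanoma state genes. OLIG2 and CDH19 are the others, and GFAP was not detected. For hepatocytes 2 of 11 were detected, ALB at 5.45, 5.03 and 5.75 and SERPINA1, with a sum of 1031 to 1060. For neurons 5 of 14 were detected, led by TUBB3, a neuronal tubulin, at 11.75, 11.74 and 11.72, with a sum of 4880 to 5101. Erythroid genes had 3 of 7 detected on 1 or 2 arrays (HBA2, HBB and HBG1) and a sum of 618.1 to 639.1. None of the 10 muscle genes, MYOD1 and DES among them, was detected on any array, and the sum over the 10 was 864.0 to 892.5.

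Positional and stem cell factors were detected in part. HOX genes, which record position along the body axis, were detected for 6 of 10 measured genes of the HOXB cluster, 5 of 9 of the HOXC cluster and 3 of 9 of the HOXD cluster, and HOXA2 was the only HOXA gene measured here. HOXC6 had 10.41, 10.57 and 10.09, and HOXB2 was close to it at 10.45, 10.49 and 10.08. HOXB8 had 9.91, 9.94 and 8.97 and was lowest in sample 2. The 6 brightest HOX genes were all of the B and C clusters.

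SOX factors were detected for 10 of 20 (50%, near the 48.9% of all genes). After SOX10, SOX9, another neural crest factor, had 9.16, 8.95 and 7.29. SOX4 had 7.60, 7.43 and 6.22, and both were lower in sample 2 by more than 1 unit. SOX18, a factor of vessels and lymphatics, had 7.95, 8.29 and 8.07. SOX2, the pluripotency factor in the title of the study, had 6.62, 6.22 and 6.55 and lay in the lower part of the detected genes. Of 18 pluripotency and stem cell factors 7 were detected (38.9%, against 48.9% of all genes). ALDH1A3, an aldehyde dehydrogenase, had 11.74, 11.58 and 12.19. BMI1, a Polycomb protein, had 9.68, 9.32 and 9.70, and LIN28B, which blocks let-7 processing, had 7.39, 7.18 and 7.20. KDM5B, a histone demethylase, had 9.09, 9.03 and 7.90, lowest in sample 2 by more than 1 unit. POU5F1, NANOG, SALL4, PROM1, ABCB5 and TERT were not detected on any array, and KLF4 was the dimmest detected member at 6.51, 5.54 and 6.26.

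In the growth pathway, the targets of ERK were detected more widely than receptors. Of 36 receptor tyrosine kinases 14 were detected (38.9%, against 48.9% of all genes). On no array were 15 detected (41.7%, against 39.1% of all genes), of which 9 had 1 probe. These shares are not far from those of all genes. After AXL came RYK, a Wnt receptor, at 9.94, 9.79 and 10.08. MET, the receptor of hepatocyte growth factor, had 9.31, 9.21 and 8.87. ERBB2, the partner of ERBB3, had 8.47, 8.45 and 8.23. Sample 2 was lowest in MET and ERBB2, by less than 1 unit. EPHA2, an ephrin receptor, spanned only 0.01 units over the 3 samples, around a log2 mean of 8.51 ± 0.01 (SD, n = 3). FGFR3 was the dimmest at 5.85, 6.30 and 5.97, and 15 receptors, among them KIT, IGF1R, FGFR1, RET, MERTK and FLT1, were not detected on any array. PDGFRA, INSR, NTRK2 and ALK were detected on 1 array and CSF1R, FGFR4 and ROR1 on 2.

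Of 29 growth factor ligands 15 were detected (51.7%, near the 48.9% of all genes). VEGFB, of the vascular growth factors, had 11.48, 11.49 and 10.98. TGFA, a ligand of the EGF receptor, had 9.46, 9.82 and 10.29 and was highest in sample 2. HBEGF, another EGF receptor ligand, had 7.92, 8.18 and 7.83. GAS6, the AXL ligand, was detected with 6.78, 7.06 and 6.75. Receptor and ligand were thus both detected for AXL, while HGF (3 probes), the ligand of MET, was not. EGF, EREG, BTC, IGF1 and PDGFA were not detected either, and PDGFD was the dimmest detected at 4.81, 4.61 and 4.62.

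Of 18 measured genes of the RAS, RAF, MEK and ERK kinases and their adaptors 11 were detected (61.1%). SHC1, an adaptor below receptors, had 11.39, 11.44 and 10.80. PTPN11, the phosphatase SHP2, had 10.17, 9.94 and 10.43. ARAF, a RAF kinase, had 9.0, 8.98 and 9.16. Further down the cascade, MAP2K1, which encodes MEK1, had 10.36, 10.32 and 10.19, and its values lay close together. MAPK3, which encodes ERK1, had 9.40, 9.54 and 8.58, lowest in sample 2. RRAS, a RAS relative, had 10.64, 10.52 and 8.66 and was lower in sample 2 by more than 1 unit. MAP2K2 (MEK2) and RRAS2, the dimmest member, had log2 means of 7.63 ± 0.35 and 7.58 ± 0.21 (SD, n = 3 each), and MAP3K8, a kinase above MEK, KSR1 and SOS2 were not detected.

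ERK targets and feedback inhibitors were detected for 22 of 24 genes (91.7%), with a median 1.58 above that of all detected genes. CCND1, cyclin D1, had 11.61, 11.67 and 12.17 and was highest in sample 2. ERRFI1, an inhibitor of the EGF receptor, had 11.83, 11.69 and 10.84 and was lowest there. SPRY2, a Sprouty inhibitor of receptor signalling, had 10.82, 10.58 and 10.83, close in all 3. The other bright members PHLDA1 and IER3 had log2 means of 11.64 ± 0.41 and 11.44 ± 0.08 (SD, n = 3 each). The phosphatase DUSP6, which switches off ERK, and the factors ETV5, FOSL1 and MYC had log2 means of 9.76 ± 0.06, 9.79 ± 0.21, 9.53 ± 0.30 and 9.15 ± 0.30 (SD, n = 3 each). FOS, an immediate early gene, was the dimmest detected member at 5.02, 5.36 and 6.32, and ETV1 and SPRED3 were not detected.

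The PI3K, AKT and mTOR genes were detected for 15 of 19. RHEB, the GTPase that activates mTOR, had 11.27, 11.18 and 11.16. AKT1 had 9.41, 9.70 and 9.62, and MTOR itself had 8.39, 8.54 and 8.53. None of the 15 detected genes spanned more than 1 unit. AKT2, RICTOR and PIK3R3 were not detected with 1 probe each, and PIK3CD was the dimmest detected at 5.81, 5.98 and 5.75.

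Cell cycle genes were detected nearly throughout, against 48.9% of all genes. Detected were 21 of 24 cyclins, cyclin-dependent kinases and E2F genes, 38 of 41 DNA replication genes and 39 of 40 mitosis genes. CDK4, the partner of cyclin D1, had 11.66, 11.74 and 12.10. CDK6, its relative, had 10.17, 9.82 and 10.60. CCND3, another D-type cyclin, had 10.58, 10.59 and 11.17. These 3 genes and CCND1 were highest in sample 2. CCNB2, a mitotic cyclin, had 10.93, 11.10 and 10.87, without that difference. E2F1, a factor of the G1 to S transition, was the dimmest at 5.50, 5.51 and 5.28, CCNE2 and E2F8 were not detected, and CCND2 was detected on 2 arrays.

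Among replication genes, MCM7, of the replicative helicase, had 12.20, 12.17 and 12.71. TYMS, thymidylate synthase, had 11.37, 11.38 and 12.16. PCNA, the sliding clamp of the polymerases, had 10.82, 10.73 and 11.73. All were highest in sample 2, as were ORC6, of the origin recognition complex, at 13.59, 13.51 and 13.68, and FEN1, a flap nuclease, at 10.87, 10.79 and 11.77. GINS1 was not detected with 1 probe, CDC6 and PRIM2 were detected on 2 arrays, and POLE was the dimmest at 6.35, 6.63 and 6.99. Among mitosis genes, CDC20, the activator of the anaphase-promoting complex, had 12.92, 12.79 and 13.06. PTTG1, securin, had 12.73, 12.55 and 12.33, and TOP2A, topoisomerase II alpha, had 11.10, 10.86 and 10.95. The median span over the 3 samples was 0.29 units in the mitosis genes and 0.55 in the replication genes. MKI67, the source of the Ki-67 proliferation antigen, was the dimmest detected at 5.58, 4.93 and 5.87, and MYBL2 was detected on 1 array.

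Inhibitors of the cycle and targets of p53 were detected as well. CDKN1A, which encodes p21, had 11.71, 11.81 and 11.77, nearly equal in the 3 samples. CDKN1B, which encodes p27, had 8.34, 8.31 and 7.83. CDKN2A, the locus of p16 and ARF, was the dimmest of its list at 5.38, 4.94 and 5.28, and CDKN2B was not detected with 3 probes. Of 19 p53 and target genes 15 were detected. ZMAT3, an RNA-binding protein, had 11.97, 12.22 and 12.77, highest in sample 2. BAX, an effector of cell death, had 10.29, 10.18 and 10.31, and TNFRSF10B, a death receptor, had 9.70, 9.76 and 9.87 with its brightest probe. With its detected probes averaged TNFRSF10B fell by 42.1 percentile points among the detected genes. FAS was the dimmest at 5.10, 4.79 and 4.86, and MDM2 was detected on 1 array and MDM4 on 2. In the BCL2 family 11 of 16 were detected. The survival gene BCL2L1 had 10.08, 10.38 and 9.90 and MCL1 had 9.40, 9.35 and 9.37. BCL2L11, which encodes BIM, was the dimmest at 5.10, 5.03 and 5.69, and BCL2A1 and BMF (4 probes) were not detected.

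Central carbon metabolism was bright. The 19 detected of 24 glycolysis genes had a median at the 90.9 percentile of detected genes. After ENO1 and GAPDH came LDHA, which makes lactate, at 13.42, 13.43 and 13.27. TPI1, triose phosphate isomerase, had 12.96, 12.75 and 12.61. ALDOA, an aldolase, had 12.27, 12.15 and 11.83, and in all 3 genes sample 2 was lowest. LDHB, the heart type of lactate dehydrogenase, had 12.48, 12.34 and 12.42. The 5 undetected genes were isoforms used mainly in other tissues: HK3, PKLR of liver and red cells (5 probes), PGAM2 of muscle and the testis forms PGK2 and GAPDHS. LDHC, the testis lactate dehydrogenase, was the dimmest detected member at 6.60, 6.60 and 6.28.

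Of 14 glucose transporters 3 were detected on all 3 arrays (21.4%, against 48.9% of all genes) and 5 on 1 or 2. The other 6 were detected on none (42.9%, against 39.1% of all genes). SLC2A1, which encodes GLUT1, had 10.77, 10.52 and 11.11, highest in sample 2. SLC2A3, which encodes GLUT3, had 10.63, 10.44 and 9.17, lowest there. SLC2A6 had 7.69, 8.07 and 7.13. SLC2A2 and SLC2A4, the transporters of liver and of insulin-responsive tissue, were not detected. In the pentose phosphate pathway 6 of 7 were detected, led by the transketolase TKT at 12.33, 12.24 and 12.56, and TKTL1 was not.

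Respiratory chain genes were bright and even across the samples. The respiratory chain had 37 of 41 subunits detected and a median at the 95.5 percentile, and none of the 37 spanned more than 1 unit. COX7C, of cytochrome oxidase, had 13.36, 13.32 and 13.02. COX4I1, another subunit of the same complex, had 13.01, 13.16 and 13.07. The tissue-limited subunits COX4I2 and COX7A1 were not detected, and NDUFS1, of complex I, was the dimmest at 5.02, 5.0 and 5.36. For the TCA cycle 26 of 28 were detected. MDH2, mitochondrial malate dehydrogenase, had 13.13, 13.18 and 13.21, and CS, citrate synthase, had 11.82, 11.72 and 11.82. The testis form PDHA2 was not detected and ME3 was the dimmest at 5.53, 5.98 and 5.48. PPARGC1A, the coactivator of mitochondrial biogenesis that MITF drives in some melanomas, was not detected with its 1 probe, and NRF1 was not with 3. TFAM, which packages and transcribes mitochondrial DNA, had 9.12, 9.06 and 9.75.

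Lipid and amino acid genes were detected for most members. Cholesterol synthesis had 19 of 21 detected, with TM7SF2 and SREBF2 detected on 2 arrays. HSD17B7, an enzyme of the pathway, had 10.25, 10.19 and 10.64. SQLE, squalene epoxidase, had 9.76, 9.56 and 8.61. Of fatty acid genes 19 of 25 were detected. SCD, the stearoyl desaturase, had 12.72, 12.56 and 11.09. FASN, fatty acid synthase, had 12.02, 12.09 and 11.31. ACLY, ATP citrate lyase, had 10.95, 10.69 and 10.29. In SQLE, SCD, FASN and ACLY sample 2 was lowest. CD36, the fatty acid receptor (3 probes), ELOVL2 and CPT1B were not detected, and CPT1A was the dimmest at 4.87, 5.02 and 5.31.

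Of serine, one-carbon and glutamine genes 20 of 23 were detected. PHGDH, the first enzyme of serine synthesis, had 12.50, 12.65 and 12.03. SHMT2, which passes carbon from serine to folate in mitochondria, had 11.41, 11.53 and 11.48. MAT1A, GPT and ARG1, enzymes of liver, were not detected. SLC7A5, the leucine carrier, had 11.53, 11.60 and 12.51. Its partner SLC3A2 had 9.83, 9.82 and 10.81, and both were highest in sample 2. Among iron and antioxidant genes 22 of 27 were detected. PRDX1, a peroxiredoxin, had 13.28, 13.23 and 13.56. MT2A, a metallothionein, had 13.35, 13.38 and 12.89, and GSTP1, a glutathione transferase, had 12.85, 12.90 and 12.86. TFRC, the transferrin receptor, had a log2 mean of 11.81 ± 0.03 (SD, n = 3), while the iron exporter SLC40A1 was not detected with 2 probes. GPX2, GSTA1, AKR1B10 and AKR1C1 were not detected either.

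**Figure D3:**
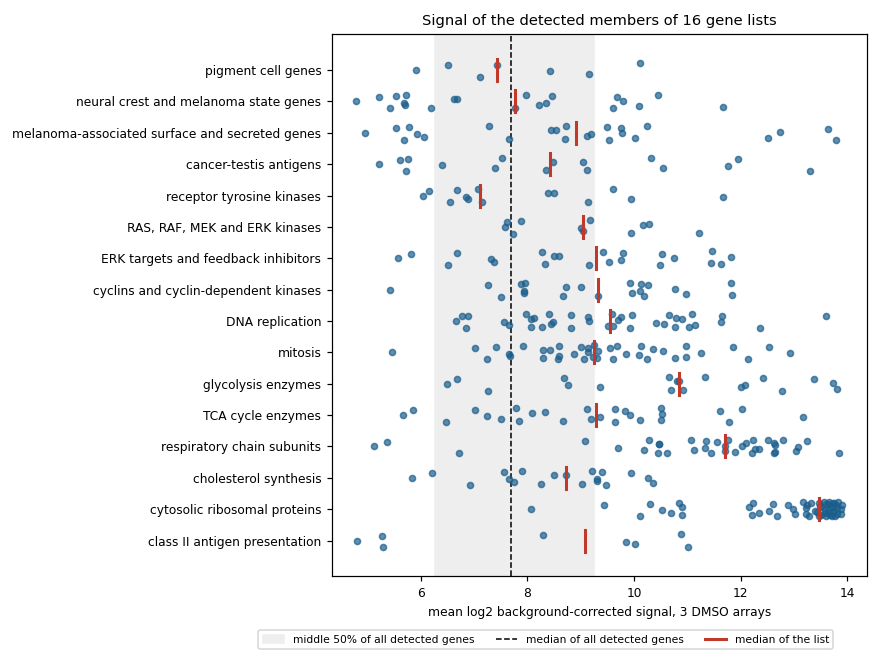
Mean log2 background-corrected signal over the 3 DMSO arrays (horizontal axis) of each detected member (points) of 16 gene lists, with the list median in red, the median of all detected genes (7.70) as a dashed line and their middle 50% (6.27 to 9.25) shaded. Ribosomal proteins, respiratory chain subunits and glycolysis enzymes lie farthest right, and receptor tyrosine kinases and pigment cell genes have medians left of the dashed line.

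Ribosomal proteins formed a bright and even group, with 57 of 61 detected, 56 of the 57 in the highest 25% and a median at the 99.2 percentile. RPL41 had 13.76, 13.89 and 13.97. RPS6, the target of S6 kinase, had 13.89, 13.88 and 13.84. RPS29 had 13.73, 13.82 and 13.93. The median span of the 57 genes was 0.14 units and none spanned more than 1. RPL28 was the dimmest at 8.06, 8.23 and 7.92, RPL37 and RPL10L were detected on 2 arrays, and RPL10 (2 probes) and RPL3L, a muscle form, were not detected. Many of these genes have processed copies elsewhere in the genome, which their probes may also read. Among translation factors, EIF4A1, an initiation helicase, had 13.70, 13.73 and 13.91, and EIF5A2 was the dimmest at 4.88, 5.77 and 5.22.

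Messenger RNAs of the translation machinery are known to begin with a run of pyrimidines that ties their translation to mTOR. A run of at least 7 letters C or T across the RefSeq start base was found in 35 of 51 ribosomal protein genes with a promoter in the reference (68.6%) and in 7 of 15 translation factor genes (46.7%), against 5.53% of the 14438 matched protein-coding genes. The run was looked for after the levels were known. The 40 bases around the start, 20 before it and 20 from it, are shown for the brightest of them and for RPL28 because they carry this shared feature, with the run across the start base (position 21) in capitals, and for RPS29, GAPDH and ENO1 because they were as bright without such a run. The sequences are from RefSeq on GRCh38.p14, 5′ to 3′ on the strand of the gene. EEF1A1 lies at chr6:73521013-73521052 (minus strand), TPT1 at chr13:45341164-45341203 (minus), RPS12 at chr6:132814549-132814588 (plus) and RPL41 at chr12:56116613-56116652 (plus). RPS25 lies at chr11:119018324-119018363 (minus), RPL38 at chr17:74203658-74203697 (plus), RPL28 at chr19:55385912-55385951 (plus) and RPS29 at chr14:49598691-49598730 (minus). GAPDH lies at chr12:6535244-6535283 (plus) and ENO1 at chr1:8878667-8878706 (minus).
EEF1A1: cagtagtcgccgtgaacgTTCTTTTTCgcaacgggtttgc
TPT1: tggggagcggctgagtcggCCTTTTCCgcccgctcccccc
RPS12: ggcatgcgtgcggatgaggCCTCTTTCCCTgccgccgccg
RPL41: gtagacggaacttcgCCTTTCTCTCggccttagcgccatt
RPS25: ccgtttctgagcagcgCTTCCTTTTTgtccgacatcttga
RPL38: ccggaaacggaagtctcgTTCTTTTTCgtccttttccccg
RPL28: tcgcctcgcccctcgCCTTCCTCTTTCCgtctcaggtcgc
RPS29: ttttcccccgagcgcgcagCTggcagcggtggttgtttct
GAPDH: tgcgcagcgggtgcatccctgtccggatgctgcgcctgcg
ENO1: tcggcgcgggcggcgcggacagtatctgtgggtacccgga
The run was 11 letters long in RPS12, 10 in RPL41 and RPS25, 9 in EEF1A1 and RPL38 and 8 in TPT1. RPL28, the dimmest detected ribosomal protein gene, had the run of 13 letters. At the start read here it was 2 letters long in RPS29, and in GAPDH and ENO1 the start base was not C or T.

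The cytoskeleton and the protein-folding machinery were bright. Of 29 cytoskeletal genes 26 were detected. TUBA1A, an alpha-tubulin, had 13.69, 13.75 and 13.69, and the actin-binding thymosin TMSB10 had 13.64, 13.74 and 13.61. The smooth and cardiac muscle genes CNN1, MYL9 and ACTC1 were not detected and TAGLN was the dimmest at 5.93, 6.0 and 6.87. HSP90AA1, the inducible HSP90, had 13.34, 13.39 and 13.65. HSPA8, the constitutive HSP70, had 12.71, 12.58 and 13.30, and sample 2 was highest in both chaperones. PSMB9, a subunit of the immunoproteasome, was the dimmest of that list at 7.33, 7.77 and 6.68.

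Of 19 cadherins and epithelial or mesenchymal genes 5 were detected on all 3 arrays (26.3%), 5 on 1 or 2 and 9 on none, and 7 were detected on both other arrays without sample 2. CDH2, N-cadherin, had 11.74, 11.68 and 11.33, while CDH1, E-cadherin, and the epithelial genes CLDN7, OCLN, ESRP1, ESRP2 and GRHL2 were not detected. CDH11 and DSP were detected on 2 arrays and EPCAM, CLDN1 and CLDN4 on 1. CDH3 was not detected either. FN1, fibronectin, was not detected with 3 probes, nor LOXL2 with 1. TGFBI, a secreted matrix protein, had 10.77, 10.93 and 10.02. Keratins were detected for 6 of 15 (40%, against 48.9% of all genes). KRT80 had 11.07, 10.99 and 10.56. KRT18, of simple epithelia, had 8.01, 7.86 and 7.23, and its partner KRT8 had 7.28, 7.09 and 5.82, both lowest in sample 2. Integrins were detected for 16 of 25. ITGB1, the common beta chain, had 11.69, 11.79 and 11.39. ITGA3, of laminin receptors, had 11.17, 11.26 and 9.83, lower in sample 2 by more than 1 unit. ITGB3, which is linked to invasive melanoma, was the dimmest detected at 5.39, 5.61 and 5.83, and the leukocyte integrins ITGAL and ITGAX were not detected.

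Among proteases and inhibitors 15 of 26 were detected (57.7%, against 48.9% of all genes). CTSL, a cathepsin, had 11.48, 11.59 and 11.31. The inhibitor TIMP2 had 10.69, 10.76 and 10.21, and TIMP3 had 9.62, 9.36 and 9.62. MMP14 and 6 other members were not detected, and MMP9 was detected on 1 array. In the S100 family 10 of 18 were detected (55.6%, against 48.9% of all genes). S100A10, an annexin partner, had 13.52, 13.64 and 13.87. S100A4, linked to metastasis, had 13.23, 13.21 and 12.94. The keratinocyte and myeloid forms S100A7, S100A8, S100A9 and S100A12 were not detected.

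Antigen presentation genes were detected in both classes. For class I 16 of 18 were detected. B2M, the invariant light chain, had 12.65, 12.70 and 12.12. TAP1, the peptide transporter, had 8.86, 9.09 and 9.04. ERAP2, a peptide-trimming enzyme, had 12.01, 12.10 and 12.65. NLRC5, the class I transactivator, and PDIA3 were not detected with 1 probe each. For class II, usually limited to immune cells but known in melanoma, 8 of 11 were detected. HLA-DRA, the alpha chain of HLA-DR, had 10.47, 10.92 and 11.65. CD74, the invariant chain, had 10.61, 10.73 and 11.29. HLA-DMA, which helps to load peptides, had 9.81, 9.97 and 9.79. HLA-DRA and CD74 were highest in sample 2, by more than 1 unit over the unnumbered sample in HLA-DRA. CIITA, the transactivator of the class, was detected on 2 arrays, HLA-DPB1 was the dimmest at 4.61, 4.71 and 5.12, and HLA-DRB1 and HLA-DOB were not detected. On the same arrays 11 of the 17 leukocyte markers were detected on none, PTPRC, CD4 and SPI1 among them, and 6 on 1 or 2, among them the monocyte markers CD14, ITGAM and CSF1R on 2, and their part in the class II signals was not tested. HLA alleles differ between people, and whether each probe matches the alleles of this line was not tested.

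Immune ligands and cytokines were detected near or under the share of all genes. Of 24 checkpoint and ligand genes 13 were detected (54.2%). LGALS1, galectin-1, had 13.39, 13.47 and 13.14. CD276, of the B7 family, had 8.09, 8.43 and 8.81. CD274, which encodes PD-L1, and PDCD1LG2 were not detected with 1 probe each. Of 37 cytokines and chemokines 13 were detected (35.1%). IL18, of the interleukin-1 family, had 12.52, 12.49 and 12.38. CXCL8, an attractant of neutrophils, had 10.41, 10.78 and 10.37. IL24 had 7.87, 7.85 and 9.72, highest in sample 2 by more than 1 unit. IFNB1, IFNG, TNF, TGFB1 and CXCL10 were not detected, and IL6 was detected on 2 arrays. Interferon-stimulated genes were detected for 23 of 27, with a median at the 31.7 percentile, under that of all detected genes. IFITM3, which blocks virus entry, had 11.86, 11.98 and 11.18, and IFI6 had 9.93, 10.02 and 8.86. Both were lowest in sample 2, and IFI27 and RSAD2 were not detected.

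Sample 2 set most of the spread. Of the 9801 genes 739 (7.54%) spanned more than 1 unit over the 3 samples. In 728 of these sample 2 was, by any margin, the lowest (494) or the highest (234) of the 3 samples. Without sample 2 the count was 15. Genes that fell to background on 1 array are not among them, since detection on all 3 was required. IGFBP5, an insulin-like growth factor binding protein, had the widest span, with 6.17 in sample 2 against 10.65 and 10.71 in the unnumbered sample and sample 1, which are given in this order hereafter. MGP, matrix Gla protein, followed with 5.24 in sample 2 against 9.71 and 9.71, and ALDOC, a glycolytic aldolase, with 8.58 in sample 2 against 11.84 and 11.53. In all 3 the unnumbered sample and sample 1 were close to each other. The same direction was seen in TXNIP, an inhibitor of thioredoxin and glucose uptake, with 7.12 in sample 2 against 10.02 and 9.77. BHLHE40, a stress-responsive repressor, had 6.90 in sample 2 against 9.84 and 9.62. ANGPTL4, an inhibitor of lipoprotein lipase, had 6.55 in sample 2 against 9.48 and 9.34. The other 4 of the 10 widest spans, RAB26, TMEM154, C1QTNF1 and SCNN1A, spanned 3.52, 3.06, 2.88 and 2.86 units and were also lowest in sample 2. The 3 genes farthest above in sample 2, picked after their values were seen, were ARPP21, LYPD1 and THBS1. THBS1, a matrix glycoprotein, had 11.04 in sample 2 against 9.10 and 8.61, and in ARPP21 and LYPD1 sample 2 exceeded the mean of the other samples by 2.32 and 2.20.

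**Figure D4:**
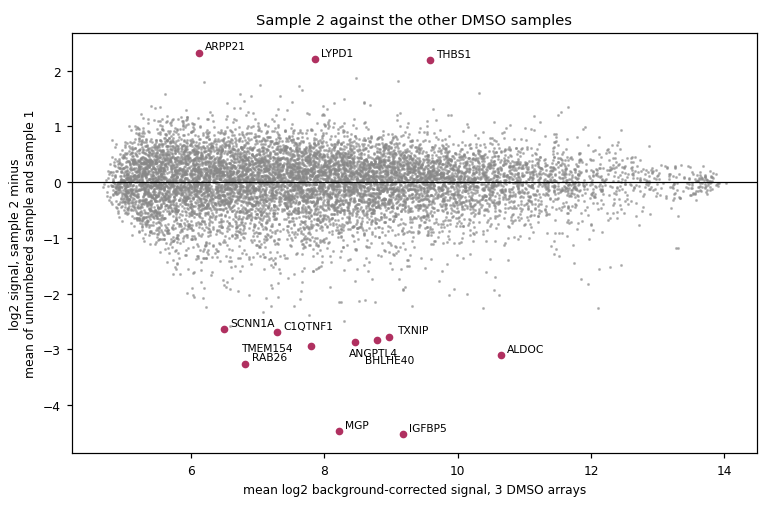
Difference in log2 signal, sample 2 minus the mean of the unnumbered sample and sample 1 (vertical axis), against the mean log2 signal of the 3 DMSO arrays (horizontal axis), for the 9801 detected genes (grey points). The 10 genes with the widest spans, all below 0, and the 3 farthest above 0 are marked.

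The difference of sample 2 ran in one direction within several gene lists. Over all detected genes sample 2 was below the mean of the other samples in 47.4% and above it in 52.6%, with a median difference of 0.03. Of 13 detected hypoxia and HIF genes 12 were lower in sample 2, with a median difference of -1.07. BNIP3, a mitophagy protein induced by low oxygen, had 10.78 in sample 2 against 12.19 and 12.26. NDRG1, a stress-responsive gene, had 8.86 in sample 2 against 11.27 and 10.98. P4HA2, a collagen hydroxylase, had 8.13 in sample 2 against 9.41 and 9.35. SLC2A1 was the exception with 11.11 in sample 2 against 10.77 and 10.52. Of 19 detected glycolysis genes 17 were lower in sample 2 (median -0.58), of 23 interferon-stimulated genes 19 (-0.74) and of 19 cholesterol genes 16 (-0.49). In the other direction, 35 of 38 DNA replication genes were higher in sample 2, with a median difference of 0.49. So were 15 of 21 cyclins, cyclin-dependent kinases and E2F genes (0.26) and 18 of 23 genes of the proteasome and chaperones (0.28). The genes of a list are not independent of each other, and these are differences of 1 sample from 2, with no test.

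Detection followed the CpG content of promoters. Promoters of mammalian genes that are active in many tissues are known to be rich in CpG dinucleotides, and those of tissue-limited genes often poor in them. The ratio of observed to expected CpG in the 300-base window was computed for 14438 of 17151 protein-coding genes outside chromosome 8 (84.2%). Where the ratio was under 0.2, 14.1% of 1739 genes were detected on all 3 arrays (95% Wilson interval 12.6% to 15.9%). The share was 22.2% between 0.2 and 0.4, 41.8% between 0.4 and 0.6 and 61.7% between 0.6 and 0.8. At 0.8 and over it was 73.6% of 6608 genes (72.5% to 74.6%). The intervals cover counting error only. Of the detected genes 85.5% had a ratio of at least 0.6, against 67.4% of all matched genes. The letters TATAAA stood on either strand in 5.34% of detected genes and in 9.41% of all matched genes. For genes not detected on any array only 79.9% could be matched, under the 80% required, so the shares of that class by themselves are void here.

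**Figure D5:**
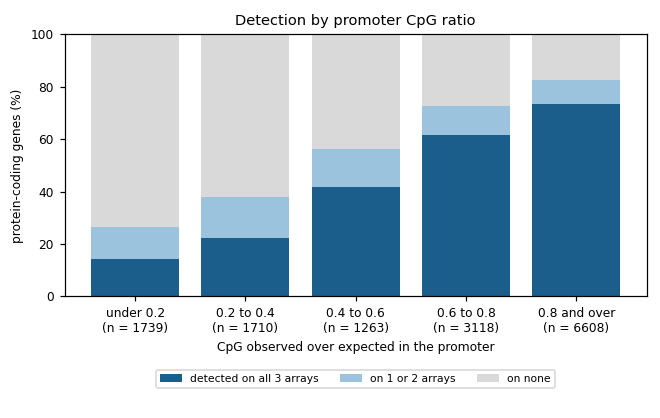
Percent of protein-coding genes detected on all 3 DMSO arrays (dark), on 1 or 2 (light) and on none (grey), in 5 classes of the observed over expected CpG ratio of the promoter, with the number of genes under each bar. The dark share is 14.1% in the class with the lowest ratio and 73.6% in the class with the highest.

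The lists differed in the same property where at least 80% of their members could be matched. The ratio was at least 0.6 in 50 of 51 ribosomal protein genes (98.0%), 35 of 36 replication genes (97.2%), 31 of 33 mitosis genes (93.9%) and all 19 cholesterol synthesis genes. It was so in 7 of 16 pigment cell genes (43.8%), 6 of 21 cancer-testis genes (28.6%), 4 of 17 S100 genes (23.5%) and 1 of 9 class II genes (11.1%). The letters CCAAT, which the factor NF-Y binds, stood on either strand in 24 of 33 mitosis genes (72.7%), 14 of 19 cholesterol genes (73.7%) and 8 of 9 class II genes (88.9%), against 36.6% of all matched genes. The promoters of 3 genes are shown, each as the 100 bases before the start with every CG in capitals, because they mark a bright gene with many CG (ENO1), a bright gene with few (AXL) and a gene not detected on any array (KRT5). They are from RefSeq on GRCh38.p14, 5′ to 3′ on the strand of the gene, with ENO1 at chr1:8878687-8878786 (minus strand), AXL at chr19:41219123-41219222 (plus) and KRT5 at chr12:52520395-52520494 (minus).
ENO1: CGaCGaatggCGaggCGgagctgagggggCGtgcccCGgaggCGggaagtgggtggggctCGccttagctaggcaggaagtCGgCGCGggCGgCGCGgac
AXL: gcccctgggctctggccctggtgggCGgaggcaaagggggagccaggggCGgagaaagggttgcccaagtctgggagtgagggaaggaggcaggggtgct
KRT5: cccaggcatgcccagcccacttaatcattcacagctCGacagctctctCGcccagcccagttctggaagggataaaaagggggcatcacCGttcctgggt
The window held 14 CG in ENO1, 2 in AXL and 3 in KRT5, and the ratio over the whole promoter was 0.88, 0.22 and 0.30. AXL was thus detected at 11.89, 11.47 and 11.64 with a promoter as poor in CG as that of KRT5, whose 1 probe stayed at background.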

How the data were processed

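Total RNA was labelled with biotin after amplification and put on Illumina bead arrays, 1 per sample, per the labels' protocols. The deposited table used here gives linear intensities of 48107 probes, which its values show to be neither background-subtracted nor normalized. Each intensity is followed by a detection p-value, so named per the file headers; its calculation and the scanner software are not given in the sources used. A second deposited table, of log2 values whose method is not stated, served as an alternative.

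After 4 probes with a missing value were dropped, limma 3.58.1 (R 4.3.3) removed the background with normexp, for which negative controls were inferred from the detection p-values, with an offset of 16. Quantile normalization over the 3 DMSO arrays and log2 followed. The number of arrays, 3, limits the precision. The background SD was 4.78 to 5.36 units. GEO's platform annotation gave 30111 probes a single symbol, 8 probes several symbols and 17984 probes none. By gene identifier, 30072 of the probes with a symbol were found in the RefSeq gene table, and 0 symbols changed. A gene stood at its detected probe with the highest mean; among 2336 genes with several detected probes the probes differed by a median of 1.38 units, and 2324 genes had both detected and undetected probes. The steps were tested on simulated data.

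The subject is 1 group, so no test was made, and lists are described by counts beside those of all genes. The members and the 53 lists were chosen with earlier results of these data known. Of 1188 listed genes, 91 had no probe under their name in the tables used and are not analysed here. The text names the 20 brightest genes without placeholder symbols, the 10 widest spans, and 3 genes on each side of the detection rule. From each list it names up to 6 of the brightest detected members, the dimmest, those detected on 1 or 2 arrays and undetected ones. SOX2, CD24, ACTB and GAPDH are also named, as are the markers of a melanoma line except MCAM. NGFR, PAX3, GAS6, MAP2K2, DUSP6, ETV5, FOSL1, MYC, TFRC, ARPP21, LYPD1 and THBS1 were picked after their values were seen. Promoters came from RefSeq, GRCh38.p14 (250 bases before the start and 50 after), matched by gene identifier. For genes with several starts (3823 of the matched genes) the first listed was used. Of the motifs searched on either strand, results are given for TATAAA with CCAAT, then for TCATGTG. The motif GGGCGG was also searched, as was CACGTG, but their shares are not described here. None of these motifs contains another. A pyrimidine run over the start base was looked for as well. The alternatives were another detection threshold, offset, background, normalization, probe rule, the deposited log2 values and each sample left out.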

Additional observations from a re-analysis of the deposited data

Results flagged for a closer look

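Besides the named genes, 17992 probes had no single gene symbol in the annotation used, and these were not part of the gene counts. Of them 3093 (17.2%) were detected on all 3 DMSO arrays, a signal in data that the descriptions above do not use. Among probes with 1 gene symbol the share was 41.9% (12611 of 30111). What these 3093 probes measure was not tested.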

How the results depend on the processing

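The count of 9801 genes detected on all 3 arrays became 10448 at a detection p under 0.05, 9796 with only the brightest probe of each gene, and 10011 to 10273 with each sample left out. The 7834 genes detected on none became 5760, 7878 and 8278 to 8365. Of the 53 list counts, those of leukocyte and erythroid markers moved by more than 1.5 times: leukocyte markers had 2 detected at a p under 0.05 and 0 to 2 with each sample left out, and erythroid markers 0 to 1. The 33 lists with a median above that of all detected genes became 31 to 34. The size of that difference depended on the probe rule and the background. It moved by more than the spread between samples in 25 of 46 lists with the mean of all detected probes, in 26 with no background correction, in 26 with the deposited log2 values and in 15 with an offset of 50. Percentiles of single genes moved in 176 of 316 with the mean of all detected probes, by a median of 2.57 points and by over 10 points in 31, with TNFRSF10B moving most (42.1 points). The sign changed for the following lists. With the mean of all detected probes it was -0.481 for neural crest and melanoma state genes and -0.776 for the BCL2 family. With a sample left out it ran from -0.0189 to 0.0169 for neural crest and melanoma state genes and -0.0578 to 0.159 for cell cycle inhibitors. For checkpoint genes it then ran from -0.109 to 0.0324 and for pigment cell genes from -0.405 to 0.0222. For HOX genes it ran from -0.223 to 0.264 and for cytokines from -0.796 to 0.0633. With the unnumbered sample and sample 1 counted as 1, an alternative chosen after seeing the data, it was 0.0290 for checkpoint genes. The 739 genes spanning more than 1 unit became 210 with no background correction, 326 with an offset of 50 and 15 to 575 with a sample left out, where 15 is without sample 2. The detected share at a CpG ratio of 0.8 and over became 76.5% at a p under 0.05 and 78.4% for genes with 2 or more probes. Under 0.2 it became 16.8% and 19.6%, and 8.96% with the highest ratio among a gene's starts, also chosen after seeing the data. The cause of these moves was not tested. No paired analysis was possible because only 1 group is described and no result comes from a test. Signals near background limit all calls of dim genes.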
